A study of Mus musculus with 14 samples.

Results

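The 3 wild-type (WT) libraries of the series were compared with its 4 other control libraries, which carried either the floxed Clic4 alleles or a Cre transgene but not both. These libraries, chosen by their genotype labels, are 7 of the 14 in the series, and no library from a Clic4 knockout (KO) mouse entered any comparison. Each library holds poly(A) RNA from the retinal pigment epithelium (RPE) of both eyes of 1 male mouse at 3 months of age, read as paired ends on an Illumina NovaSeq. WT mice were C57BL/6J without a transgene (n = 3). Ctrl mice were Clic4f/f (n = 2), homozygous for the floxed Clic4 alleles and without Cre, so that Clic4 was intact. CreCtrl mice were Best1-Cre+/- (n = 2), with 1 Cre transgene under the promoter of Best1, an RPE gene, and with wild-type Clic4. The labels give the strain of all 7 as C57BL/6J. The study took RPE cells off the choroid and sclera with hyaluronidase and trypsin after the retina had been lifted away. Cre under the Best1 promoter is active in RPE cells from some days after birth, by the study's methods. By the titles of the samples each control genotype goes with a set of KO mice of its own, so control genotype and set cannot be told apart. The Ctrl mice were littermates of KO mice, and no source gives a litter for the WT or CreCtrl mice.

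The RPE is a pigmented epithelium between the photoreceptors and the choroid, the vascular and connective tissue layer behind the retina. It regenerates the visual chromophore in the visual cycle, makes melanin and engulfs shed photoreceptor outer segments. Fibroblasts, pericytes, endothelial cells and macrophages belong to the choroid, and each has marker transcripts that RPE cells make little or none of. Immediate-early genes such as Fos mostly encode transcription factors and are transcribed within minutes of a stimulus, including the handling of tissue. Clic4 encodes a chloride intracellular channel protein of the CLIC family.

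Libraries of this comparison stood apart in several ways that the genotypes do not name. Counts per library summed to 9828293 to 12363580 in WT and to 14116835 to 28581114 in the other controls, without overlap (exact two-sided permutation p = 0.0571, the smallest that 3 against 4 libraries allow). All 10 RPE markers were found at 1 CPM or more in every library, where CPM are counts scaled by TMM-corrected library size to a common total. Both Ctrl libraries held few counts of many ribosomal protein genes and of some other genes with copies elsewhere in the genome. Gapdh, a glycolytic enzyme with many processed copies, had 324, 332 and 391 CPM in WT, 11.5 and 6.80 CPM in Ctrl and 735 and 582 CPM in CreCtrl. Ctrl replicate 2 held transcripts of the corneal epithelium, with 4346 CPM of Krt12, the cornea's own keratin, against 275 in Ctrl replicate 1 and at most 6.62 in the other 5 libraries. WT replicate 1 held 49971 CPM by library size alone of Gm42418, a gene that overlaps ribosomal RNA sequence, against 2472 to 21248 in the others. The part of these features in the results was not tested, and the differences from Ctrl and from CreCtrl are given side by side where they differ.

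Of 16755 genes tested, 3488 (20.8%) differed between WT and the other controls, at an adjusted p under 0.05 in edgeR's quasi-likelihood test and a fold change above 1.5. Of these, 1816 (10.8%) were higher in WT and 1672 (9.98%) were lower. Against Ctrl alone 3326 genes differed (19.9%), 1514 higher (9.04%) and 1812 lower (10.8%). Against CreCtrl alone 1998 genes differed (11.9%), 1089 higher (6.5%) and 909 lower (5.43%). Between the 2 other control genotypes 141 genes differed (0.842%), 122 higher in CreCtrl (0.728%) and 19 lower (0.113%). That comparison sets 2 libraries against 2, fewer than the others, and 2228 genes had an unadjusted p under 0.05 in edgeR's test. Its low count does not show that the 2 genotypes are alike. All 3 WT libraries lay above all 4 others for 2616 genes (15.6%) and below them for 2846 (17%). The comparisons of WT with Ctrl and with CreCtrl share the WT libraries. Library size alone in place of TMM factors moved the median over all genes from a log2 fold change of -0.00 to 0.16 and the split of WT against the other controls to 2237 higher and 1138 lower. Without CreCtrl replicate 1 no gene passed against CreCtrl in edgeR's test, with 2555 at an unadjusted p under 0.05. A fit without 1 of the 2 libraries of Ctrl or CreCtrl leaves 1 library in that group, which is then assumed to vary like the other groups. The count against all other controls was 1897 without that library and 2249 without WT replicate 2.

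Fibroblast markers followed the same split of the libraries. A fibroblast score, the mean log2 CPM of the 10 markers, was 8.61, 8.87 and 8.84 in WT, 6.25 and 5.75 in Ctrl and 6.28 and 7.29 in CreCtrl. With this score as a covariate no gene passed between WT and the other controls in edgeR's test, with 373 reaching an unadjusted p under 0.05. The score does not overlap between WT and the others, so in this fit the score and the genotype cannot be told apart. In bulk RNA, fewer cells of a type and less RNA per cell cannot be told apart.

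Fibroblast genes were higher in WT. All 10 fibroblast markers rose, with a median log2 fold change of 2.40 against the other controls, 2.70 against Ctrl and 1.93 against CreCtrl, and all 10 were called in each comparison. Their summed level was 8708, 8988 and 9169 CPM in WT, 2237 and 1263 CPM in Ctrl and 1479 and 3278 CPM in CreCtrl. The WT libraries lay within a narrow band, 4.34-fold above the mean of the others, and none of the others reached it. Col3a1, the main fibrillar collagen of loose connective tissue, had 776, 809 and 799 CPM in WT, 129 and 56.6 CPM in Ctrl and 126 and 246 CPM in CreCtrl, giving a log2 fold change of 2.60 ± 0.32 (SE, adjusted p = 0.00138). Col6a1, a subunit of microfibrillar collagen, had 469.2, 424 and 514 CPM in WT, 82.9 and 38.3 CPM in Ctrl and 62.9 and 115.3 CPM in CreCtrl, giving a log2 fold change of 2.68 ± 0.30 (SE, adjusted p = 0.00106). Mgp, an inhibitor of calcification made by fibroblasts and vascular cells, had 651, 977 and 736 CPM in WT, 54.9 and 55.4 CPM in Ctrl and 125 and 337 CPM in CreCtrl. CreCtrl replicate 2 lay highest among the other controls for Col3a1, Col6a1 and Mgp. Dpt, dermatopontin of the extracellular matrix, reached 56.5 CPM in WT replicate 2 and stayed at or below 6.99 CPM in the other controls.

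**Figure D1:**
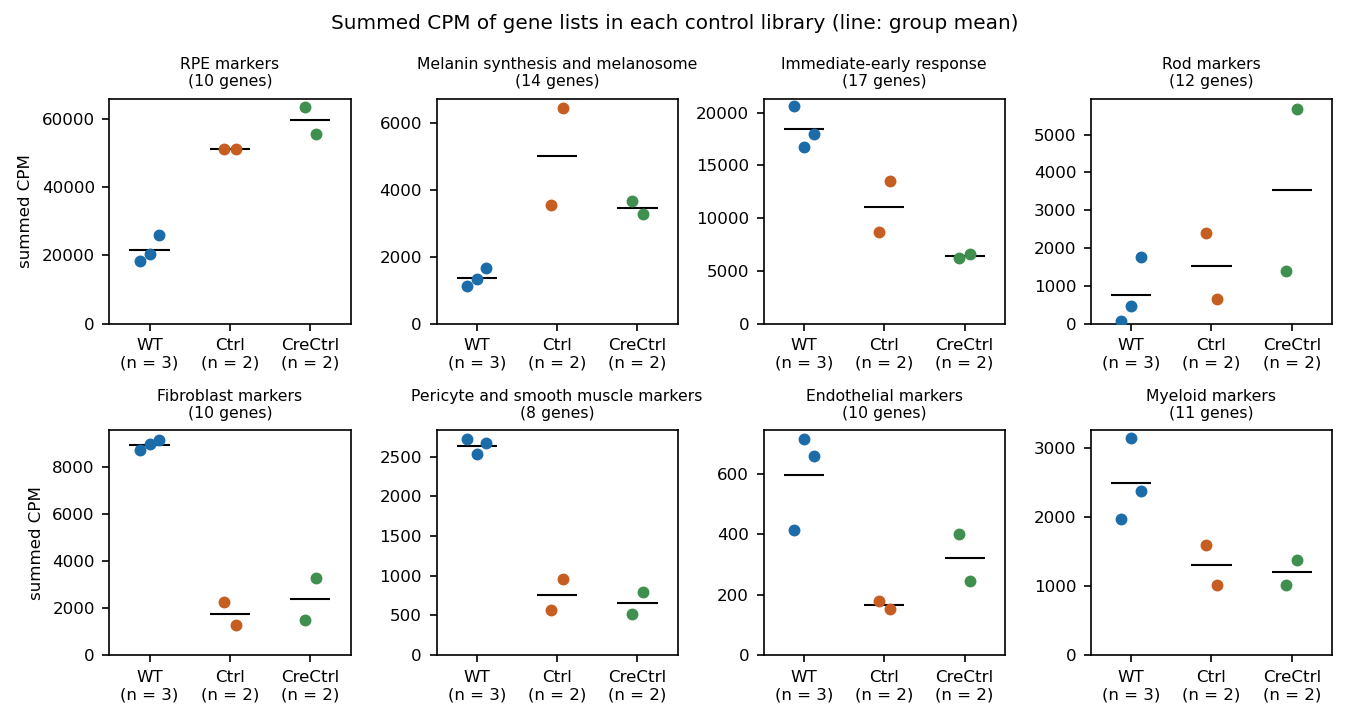
Summed CPM of 8 gene lists (y axis) in each of the 7 control libraries, by genotype (x axis), with 1 point per library and a line at the group mean. The WT libraries lie below all others for RPE markers and melanin genes and above all others for fibroblast, pericyte, endothelial, myeloid and immediate-early genes, while rod markers overlap.

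Of the vascular markers, about as many were called higher in WT as were not called. Of 8 pericyte and smooth muscle markers tested 4 were higher and 0 lower (3 higher and 1 lower against Ctrl, 3 higher and 0 lower against CreCtrl), with a median log2 fold change of 1.89, and their summed CPM was 2721, 2527 and 2667 CPM in WT, 565 and 952 CPM in Ctrl and 519.5 and 797 CPM in CreCtrl. Rgs5, a pericyte regulator of G protein signalling, had 2065, 1937 and 1707 CPM in WT, 297 and 179 CPM in Ctrl and 219 and 539 CPM in CreCtrl, giving a log2 fold change of 2.66 ± 0.32 (SE, adjusted p = 0.00129). Notch3, a receptor of vascular smooth muscle, was also called, but Ctrl replicate 2 held 96.0 CPM, within the WT range of 88.2 to 109, and the call was lost without any 1 of the WT libraries or CreCtrl replicate 1 (adjusted p = 0.0511 to 0.0864). Of 10 endothelial markers 5 were higher (7 against Ctrl, 3 against CreCtrl) and 0 lower, with a median of 1.38. Emcn, an endothelial sialomucin, had 62.2, 103 and 101 CPM in WT, 17.2 and 17.4 CPM in Ctrl and 37.9 and 28.9 CPM in CreCtrl, giving a log2 fold change of 1.88 ± 0.21 (SE, adjusted p = 0.00108). Eng, a coreceptor for TGF-beta on endothelium, had 102, 157 and 169 CPM in WT, 33.5 and 26.9 CPM in Ctrl and 71.9 and 60.1 CPM in CreCtrl. Pecam1, an endothelial adhesion molecule, overlapped between WT (26.6 CPM in replicate 1) and CreCtrl (30.2 CPM in replicate 1). Pecam1 was called against Ctrl and against both together but not against CreCtrl. The summed level of endothelial markers was 413, 717 and 659 CPM in WT, 178 and 153 CPM in Ctrl and 399.7 and 246 CPM in CreCtrl, so the lowest WT library lay just above the highest CreCtrl library.

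Most myeloid and complement genes tested were called higher in WT. Of 11 myeloid markers 7 were higher and 0 lower (4 against Ctrl and 7 against CreCtrl), with a median log2 fold change of 1.64. C1qb, a chain of the first complement component that macrophages make, had 173, 259.8 and 189.9 CPM in WT, 91.7 and 39.6 CPM in Ctrl and 27.4 and 58.7 CPM in CreCtrl, giving a log2 fold change of 1.97 ± 0.35 (SE, adjusted p = 0.00524). Mrc1, the mannose receptor of tissue macrophages, had 60.0, 106 and 55.1 CPM in WT, 29.4 and 12.4 CPM in Ctrl and 12.01 and 23.4 CPM in CreCtrl, giving a log2 fold change of 1.94 ± 0.37 (SE, adjusted p = 0.00782). Aif1, a calcium-binding protein of macrophages and microglia, had 18.0, 16.1 and 13.7 CPM in WT, 4.94 and 1.91 CPM in Ctrl and 2.11 and 2.59 CPM in CreCtrl. In contrast Csf1r, the receptor for colony-stimulating factor 1, had 543, 529.7 and 566 CPM in WT, 631 and 493.2 CPM in Ctrl and 674 and 613 CPM in CreCtrl, and its log2 fold change of -0.14 did not pass the test. The WT values of Csf1r lay within the range of the others, unlike those of the complement chains in the same list. Of 11 complement genes tested 8 were higher and 0 lower (7 in each of the comparisons with Ctrl and CreCtrl), with a median of 1.81. C1ra and C1s1, the proteases of the first component, share 50.8% and 24.3% of their 50-base stretches with other genes, so their counts may be split among copies. C1s1 had 290.3, 329.5 and 287 CPM in WT, 48.9 and 35.6 CPM in Ctrl and 63.3 and 120.0 CPM in CreCtrl, giving a log2 fold change of 2.28 ± 0.23 (SE, adjusted p = 0.000807). C3, the central component, had 56.9, 160.1 and 67.1 CPM in WT, 15.9 and 24.4 CPM in Ctrl and 17.2 and 32.5 CPM in CreCtrl, giving a log2 fold change of 2.08 ± 0.39 (SE, adjusted p = 0.00734). The myeloid and complement lists share C1qa, C1qb and C1qc.

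Genes of antigen presentation and the interferon response gave a weaker picture. Of 16 tested, 7 were higher and 0 lower, with a median log2 fold change of 0.74, and 2 were higher against Ctrl and 5 against CreCtrl. Over all genes tested 10.8% were higher against all other controls, 9.04% against Ctrl and 6.5% against CreCtrl. The count of 2 against Ctrl was thus near the share of all genes. The count of 7 was 4 without WT replicate 1, 2 without WT replicate 2, 4 without WT replicate 3 and 2 without CreCtrl replicate 1. H2-D1, a class I histocompatibility heavy chain, had 597, 648 and 534 CPM in WT, 246 and 249 CPM in Ctrl and 173 and 248 CPM in CreCtrl, giving a log2 fold change of 1.38 ± 0.18 (SE, adjusted p = 0.0015). It shares 13.7% of its 50-base stretches with related genes, so reads of class I genes may be split between them. B2m, the light chain of class I molecules, had 453, 610.1 and 597 CPM in WT, 709 and 1355 CPM in Ctrl and 605 and 593 CPM in CreCtrl and did not pass the test.

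Basement membrane genes divided by chain. Of 15 tested, 7 were higher and 5 lower in WT, and their summed level overlapped between the groups. The type IV collagen chains of vascular and general basement membranes, Col4a1 and Col4a2, were higher. Col4a1 had 372, 286 and 352 CPM in WT, 72.7 and 66.5 CPM in Ctrl and 74.6 and 134 CPM in CreCtrl, giving a log2 fold change of 1.98 ± 0.22 (SE, adjusted p = 0.000956). The chains that form a separate network found in Bruch's membrane, Col4a3, Col4a4 and Col4a5, were lower. Col4a3 had 302, 137 and 176 CPM in WT, 528 and 561 CPM in Ctrl and 694 and 732 CPM in CreCtrl, giving a log2 fold change of -1.60 ± 0.27 (SE, adjusted p = 0.00468). WT replicate 1 held the most Col4a3 of the WT libraries and still lay below all others. Lama4, the laminin chain of vessels, had 85.9, 119 and 91.2 CPM in WT, 14.0 and 10.95 CPM in Ctrl and 18.0 and 33.0 CPM in CreCtrl, giving a log2 fold change of 2.47 ± 0.24 (SE, adjusted p = 0.000733). Hspg2, the proteoglycan perlecan, had 345, 344 and 384 CPM in WT, 102 and 92.4 CPM in Ctrl and 118 and 149.9 CPM in CreCtrl, giving a log2 fold change of 1.65 ± 0.15 (SE, adjusted p = 0.000616). The 5 lower calls were 2 under library size alone and 2 without WT replicate 2, WT replicate 3 or CreCtrl replicate 1, while the 7 higher calls held in number under each of these.

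Most RPE markers were lower in WT. Of 10 RPE markers 0 were higher and 8 lower, with a median log2 fold change of -1.17 (-1.07 against Ctrl and -1.19 against CreCtrl, 7 lower in each). Their summed level was 18398, 20336 and 26030.4 CPM in WT, 51380.4 and 51246 CPM in Ctrl and 63775 and 55719 CPM in CreCtrl. The WT libraries were all low, and the ranges were far apart. Rpe65, the isomerase of the visual cycle, had 1285, 1296 and 1767 CPM in WT, 3318 and 3796 CPM in Ctrl and 4871 and 3571 CPM in CreCtrl, giving a log2 fold change of -1.42 ± 0.22 (SE, adjusted p = 0.00327). Otx2, a transcription factor that specifies the RPE, had 421, 319 and 313 CPM in WT, 880.1 and 969 CPM in Ctrl and 1011 and 891 CPM in CreCtrl, giving a log2 fold change of -1.42 ± 0.18 (SE, adjusted p = 0.00158). Best1, whose promoter drives Cre in the CreCtrl mice, had 3.68, 6.43 and 4.65 CPM in WT, 3.22 and 1.30 CPM in Ctrl and 2.86 and 3.57 CPM in CreCtrl and did not pass the test, giving a log2 fold change of 0.87 ± 0.49 (SE, adjusted p = 0.254). Slc16a8, a lactate transporter of the basal RPE membrane, also did not pass, with a log2 fold change of -0.52. CPM are shares of a library's counts, and the part of the higher stromal counts in these lower values was not tested.

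The visual cycle followed, with 10 of 12 genes lower and 0 higher and a median log2 fold change of -1.37 (8 lower against Ctrl and 9 against CreCtrl). The count of 10 was 6 without WT replicate 2. Lrat, which esterifies retinol, had 286, 343 and 399 CPM in WT, 1505 and 2472 CPM in Ctrl and 2088 and 1255 CPM in CreCtrl, giving a log2 fold change of -2.41 ± 0.28 (SE, adjusted p = 0.00117). Rdh10, a retinol dehydrogenase, had 477, 511 and 726 CPM in WT, 2975 and 3343 CPM in Ctrl and 2575 and 2105 CPM in CreCtrl, giving a log2 fold change of -2.25 ± 0.23 (SE, adjusted p = 0.000807). Rgr, an opsin of the RPE that aids regeneration of the chromophore, had 3271, 3403 and 4108 CPM in WT, 12042 and 15777 CPM in Ctrl and 13943 and 11131 CPM in CreCtrl, giving a log2 fold change of -1.88 ± 0.23 (SE, adjusted p = 0.00142). Among members called, the log2 fold change ran from -2.41 for Lrat to -0.74 for Rlbp1, the retinaldehyde-binding protein. Dhrs3, a retinal reductase, had 172, 188 and 241 CPM in WT, 201 and 197 CPM in Ctrl and 217 and 210.1 CPM in CreCtrl and did not pass, with a log2 fold change of -0.04.

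Melanin genes are shown by their promoters, because the sequence just before the start site of several of them carries the same 6 letters. The 100 bases before the annotated start site are given 5′ to 3′ from RefSeq promoter windows (GRCm38.p6), with the M-box core CATGTG, a site named for the factors of the Mitf family, in capitals where it reads on either strand.
Tyr, chr7:87493513-87493612, minus strand: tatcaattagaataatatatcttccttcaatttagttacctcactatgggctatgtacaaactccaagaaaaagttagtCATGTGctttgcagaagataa
Tyrp1, chr4:80834113-80834212, plus strand: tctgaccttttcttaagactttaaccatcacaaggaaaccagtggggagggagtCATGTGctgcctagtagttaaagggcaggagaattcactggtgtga
Slc24a5, chr2:125068027-125068126, plus strand: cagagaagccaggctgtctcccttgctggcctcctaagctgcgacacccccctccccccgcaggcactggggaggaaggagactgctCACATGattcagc
Promoter windows of 300 bases, 250 before and 50 after the start, were found for 9 of the 14 melanin genes. These genes have 11 windows, and CATGTG lay on either strand in 5 of the 11 (45.5%), 1 for each of 5 genes, against 14.2% of all 32851 windows of that length, and each match also fits the wider E-box CANNTG. Their transcripts were mostly lower in WT. Of 14 melanin genes tested 9 were lower and 0 higher (10 lower against Ctrl, 7 against CreCtrl), with a median log2 fold change of -1.50. Tyr, tyrosinase, had 59.8, 74.6 and 108 CPM in WT, 216 and 262 CPM in Ctrl and 239 and 210.3 CPM in CreCtrl, giving a log2 fold change of -1.52 ± 0.22 (SE, adjusted p = 0.0026). Slc24a5, a cation exchanger of the melanosome, had 49.2, 55.9 and 68.9 CPM in WT, 238 and 344 CPM in Ctrl and 297 and 221 CPM in CreCtrl, giving a log2 fold change of -2.24 ± 0.22 (SE, adjusted p = 0.000728). Oca2, a melanosomal transporter whose window also holds CATGTG, had 26.5, 23.9 and 26.8 CPM in WT, 167 and 221 CPM in Ctrl and 151 and 109.5 CPM in CreCtrl, giving a log2 fold change of -2.63 ± 0.19 (SE, adjusted p = 0.00028). Tyrp1, a melanosomal enzyme with the same letters in its promoter, had 104, 177 and 216 CPM in WT, 299 and 934 CPM in Ctrl and 314 and 201 CPM in CreCtrl, with a log2 fold change of -1.26 that did not pass. Ctrl replicate 2 held the most of all melanin transcripts, at a summed 6442 CPM against 3259 to 3663 in the other 3 non-WT controls and 1108 to 1652 in WT. Mlph, which links melanosomes to myosin, had 21.5, 32.9 and 36.6 CPM in WT, 20.5 and 74.3 CPM in Ctrl and 20.9 and 17.4 CPM in CreCtrl and overlapped between the groups.

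Genes of outer segment phagocytosis moved in both directions, with 4 of 10 higher and 2 lower. The 4 higher calls were 2 without WT replicate 3 or CreCtrl replicate 2 and 6 under library size alone, while 2 were lower in each of these fits. Mertk, the receptor that RPE cells need to engulf outer segments, had 154, 80.5 and 86.1 CPM in WT, 265 and 284 CPM in Ctrl and 239.6 and 251 CPM in CreCtrl, giving a log2 fold change of -1.28 ± 0.24 (SE, adjusted p = 0.00738). Itgav, the alpha chain of the integrin that binds them, had 147.5, 143 and 164 CPM in WT, 606 and 896 CPM in Ctrl and 567 and 341 CPM in CreCtrl, giving a log2 fold change of -1.95 ± 0.24 (SE, adjusted p = 0.00135). Axl, a relative of Mertk that fibroblasts and vascular cells also express, had 408, 414 and 343 CPM in WT, 104 and 80.9 CPM in Ctrl and 79.2 and 175 CPM in CreCtrl, giving a log2 fold change of 1.84 ± 0.26 (SE, adjusted p = 0.00231). Pros1, a ligand of these receptors, had 44.8, 51.3 and 42.5 CPM in WT, 17.9 and 15.1 CPM in Ctrl and 16.2 and 21.9 CPM in CreCtrl, giving a log2 fold change of 1.38 ± 0.19 (SE, adjusted p = 0.00184). Tyro3, the remaining receptor of the family, had a log2 fold change of 0.09 and did not pass.

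**Figure D2:**
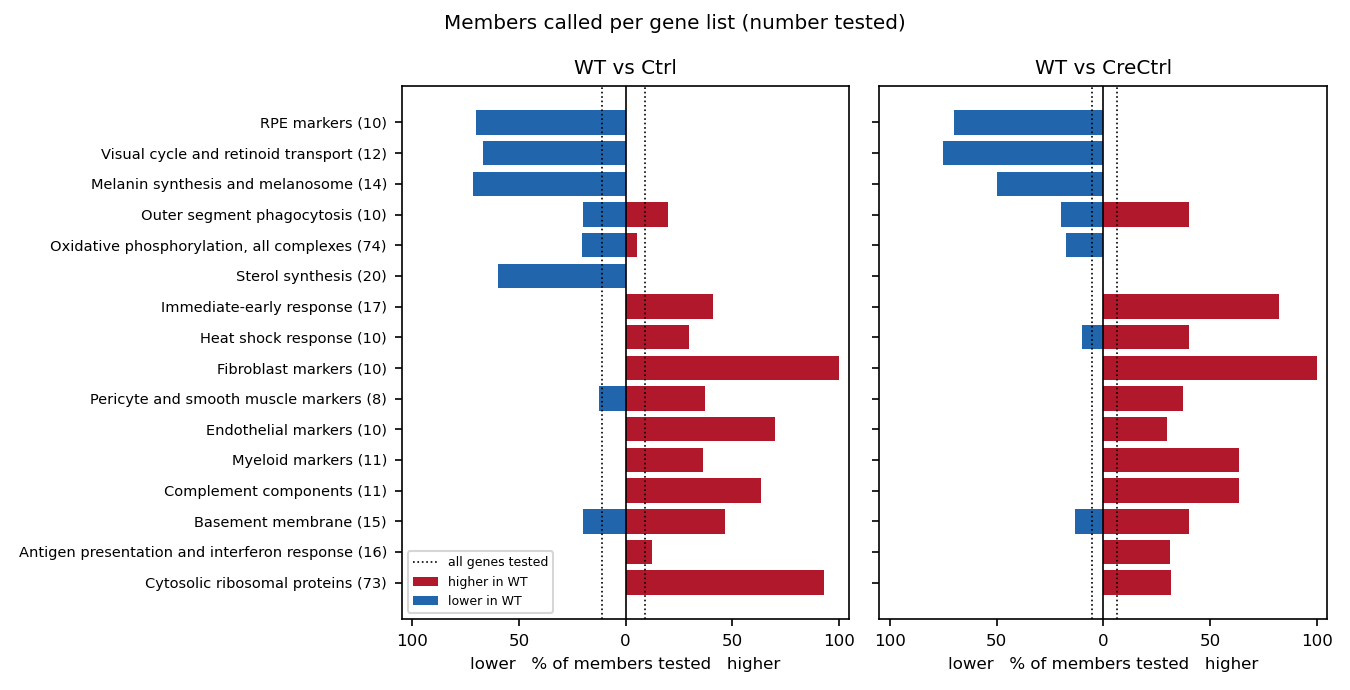
Percent of the tested members of 16 gene lists called higher (to the right) or lower (to the left) in WT than in Ctrl and than in CreCtrl, with the number tested in parentheses and dotted lines at the percent of all genes tested. All 10 fibroblast markers were higher in both comparisons, and ribosomal protein genes were mostly higher against Ctrl (68 of 73) and less often called against CreCtrl (23 of 73).

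The immediate-early genes were higher in WT. Of 17 tested, 16 were called higher and 0 lower, with a median log2 fold change of 1.13, 0.70 against Ctrl (7 called) and 1.51 against CreCtrl (14 called). Without CreCtrl replicate 1, 8 were called, and without each other library 11 to 17. Their summed level was 20596, 16777 and 17944 CPM in WT, 8682 and 13504 CPM in Ctrl and 6226 and 6639.6 CPM in CreCtrl. All WT libraries lay above all others, and Ctrl replicate 2 lay between WT and the other 3. Fos, a subunit of the transcription factor AP-1, had 2783, 2346 and 2349 CPM in WT, 1301 and 1364 CPM in Ctrl and 856 and 909 CPM in CreCtrl, giving a log2 fold change of 1.20 ± 0.17 (SE, adjusted p = 0.00215). Junb, a partner of Fos, had 2808, 2083 and 2110.4 CPM in WT, 959 and 1258 CPM in Ctrl and 626 and 707 CPM in CreCtrl, giving a log2 fold change of 1.44 ± 0.20 (SE, adjusted p = 0.002). Nr4a1, an orphan nuclear receptor, had 1148, 1169.7 and 1569.5 CPM in WT, 426 and 606 CPM in Ctrl and 364 and 395 CPM in CreCtrl, giving a log2 fold change of 1.55 ± 0.20 (SE, adjusted p = 0.00156). Ier2, a nuclear protein induced with them, had 595, 355 and 404 CPM in WT, 158 and 176 CPM in Ctrl and 136 and 173 CPM in CreCtrl, giving a log2 fold change of 1.49 ± 0.21 (SE, adjusted p = 0.00226). Zfp36, which destabilises mRNAs of cytokines, reached 2005 CPM in Ctrl replicate 2, above the 1740.3 and 1839 CPM of WT replicates 2 and 3. Klf6, a zinc-finger factor, was the single member not called, with 385 CPM in Ctrl replicate 2 and 143 to 187 CPM in WT.

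Several of these genes carry the core of the cAMP response element, TGACG, near the start site. It is shown in capitals on either strand in the 100 bases before the start of 3 members, from the same RefSeq windows.
Fos, chr12:85473790-85473889, plus strand: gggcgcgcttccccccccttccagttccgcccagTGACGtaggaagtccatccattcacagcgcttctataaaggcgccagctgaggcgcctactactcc
Fosb, chr7:19310046-19310145, minus strand: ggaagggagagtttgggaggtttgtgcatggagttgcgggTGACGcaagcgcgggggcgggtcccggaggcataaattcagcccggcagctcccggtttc
Nr4a1, chr15:101266746-101266845, plus strand: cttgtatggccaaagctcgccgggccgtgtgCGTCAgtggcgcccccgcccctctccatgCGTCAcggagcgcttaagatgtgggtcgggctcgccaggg
The windows of 300 bases were found for 14 of the 17 genes. Of their 18 windows 11 held TGACG (61.1%), belonging to 9 genes, against 20.8% of all windows. The full cAMP response element lay in 2 of the 18 (11.1%), belonging to 2 genes, against 1.79% of all windows. The CArG box, another motif searched in these windows, lay in 5 of the 18 (27.8%), belonging to 2 genes, against 1.63%. Of the 3 shown, Nr4a1 carries 2 matches to TGACG in the 100 bases. Fosb had 1794, 1418 and 1392 CPM in WT, 776 and 1302 CPM in Ctrl and 711 and 633 CPM in CreCtrl. Its log2 fold change was 0.88. Whether the matches relate to the fold changes was not tested. The match is one of letters, and binding was not measured.

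Heat shock and clock genes changed less uniformly. Of 10 heat shock genes 3 were higher and 1 lower, and their summed level overlapped. The members shared a median of 48.1% of their 50-base stretches with other genes, and 2 of them shared none. Hsph1, a chaperone of the Hsp110 class, had 163, 124 and 177 CPM in WT, 49.2 and 61.3 CPM in Ctrl and 60.8 and 70.4 CPM in CreCtrl, giving a log2 fold change of 1.36 ± 0.18 (SE, adjusted p = 0.00162). Hsp90aa1, the inducible Hsp90, had 167, 183 and 234 CPM in WT, 177 and 278 CPM in Ctrl and 787 and 521 CPM in CreCtrl. Its counts were thus high in CreCtrl and alike in WT and Ctrl. It shares 58.5% of its 50-base stretches with other genes, and the part of read assignment in its Ctrl counts was not tested. Its call was lost without WT replicate 1 or 2 or CreCtrl replicate 1 (adjusted p = 0.0682 to 0.0815). Of 18 circadian clock genes 2 were higher and 4 lower, with a median log2 fold change of -0.06. Over all genes tested 10.8% were higher and 9.98% lower, so the count higher was near that share. Per1, a clock repressor that is also an immediate-early gene, had 352, 480.4 and 313 CPM in WT, 163 and 149.1 CPM in Ctrl and 197 and 203 CPM in CreCtrl, giving a log2 fold change of 1.11 ± 0.18 (SE, adjusted p = 0.00374). The 6 clock genes called were 3 without WT replicate 1 or 2, 1 without WT replicate 3 or CreCtrl replicate 1, and 2, with 0 lower, under library size alone.

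Clic4 was higher in WT than in either other control genotype, although all 7 mice carried intact Clic4. Clic4 (ENSMUSG00000037242) lies on chromosome 4 of GRCm38 from 135213969 to 135272814 on the minus strand, with 5 exon blocks. It had 253, 249 and 243 CPM in WT, 77.6 and 68.0 CPM in Ctrl and 94.9 and 118 CPM in CreCtrl. The WT mean was 248 ± 4.996 CPM (SD, n = 3), against 72.8 ± 6.80 CPM (SD, n = 2) in Ctrl and 107 ± 16.7 CPM (SD, n = 2) in CreCtrl. All WT libraries lay above all others, and values within a genotype were close. The difference was 1.49 on the log2 scale against all other controls (standard error 0.15, adjusted p = 0.000728), 1.77 against Ctrl and 1.22 against CreCtrl. The Ctrl and CreCtrl libraries were not called different in Clic4 (log2 fold change 0.55, adjusted p = 0.27), with the Ctrl values below the CreCtrl values. With the fibroblast score as a covariate the log2 fold change of Clic4 was 0.79 and not called, but no gene was called in that fit. The score does not overlap between WT and the others, so that fit cannot tell the score and the genotype apart. The part of stromal RNA in the Clic4 difference was not tested.

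The CLIC relatives differed among themselves. Clic6, a member found in secretory epithelia, had 337, 491 and 589.8 CPM in WT, 877 and 1411 CPM in Ctrl and 1224 and 930.0 CPM in CreCtrl, giving a log2 fold change of -1.23 ± 0.26 (SE, adjusted p = 0.0125), and lost its call without WT replicate 2 (adjusted p = 0.0544). Clic1, a widely expressed member, had 90.0, 108 and 108 CPM in WT, 63.2 and 112.1 CPM in Ctrl and 35.5 and 35.9 CPM in CreCtrl, so WT and Ctrl overlapped and CreCtrl was low. Its call was lost without WT replicate 2 or 3 or either CreCtrl library (adjusted p = 0.0593 to 0.0776). Clic5, a member linked to the actin cortex, had 11.03, 11.8 and 7.17 CPM in WT, 3.65 and 2.61 CPM in Ctrl and 3.94 and 5.10 CPM in CreCtrl, giving a log2 fold change of 1.41 ± 0.35 (SE, adjusted p = 0.0224), and was called in fewer than all fits that left out 1 library, with an adjusted p of up to 0.109 without CreCtrl replicate 1. Clic3 had 28.8 CPM in Ctrl replicate 2, the library with corneal transcripts, and at most 3.43 elsewhere. Of the 5 members tested 3 were called higher and 1 lower. That total of 4 was 1 without WT replicate 2 and 2 without CreCtrl replicate 1 or 2, and Clic4 was the member called in each fit that left out 1 library.

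**Figure D3:**
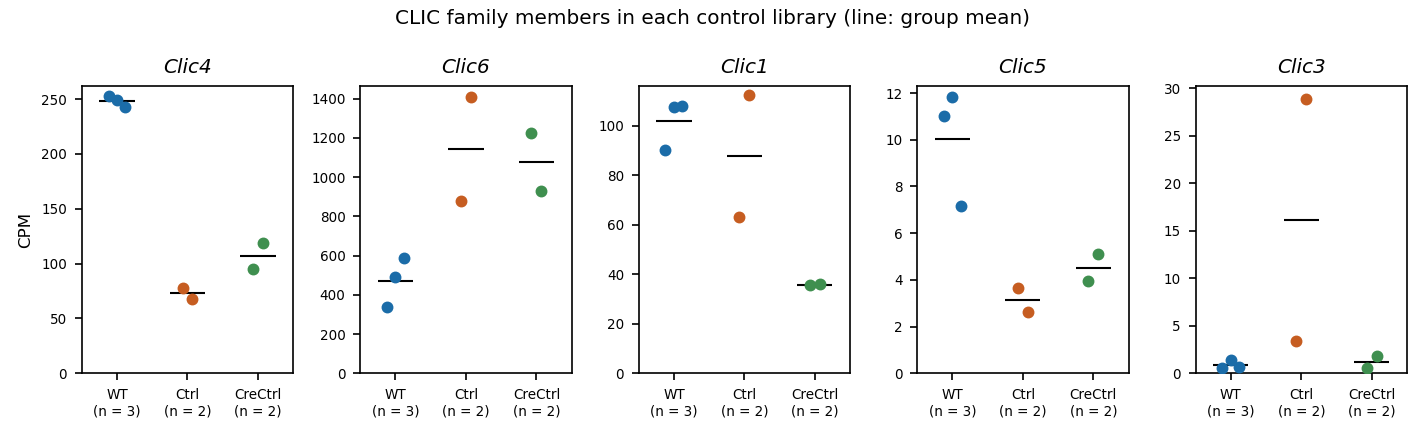
CPM of 5 CLIC family genes (y axis, a scale of its own for each gene) in each control library by genotype (x axis), with 1 point per library and a line at the group mean. Clic4 lies at 243 to 253 CPM in WT and at 68.0 to 118 CPM in the others, Clic6 is lower in WT, and Clic3 is high in Ctrl replicate 2 alone.

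Genes near Clic4 were called about as often as genes elsewhere. Within 10 Mb of Clic4 285 genes were tested, and 53 of them (18.6%) differed between WT and Ctrl, 26 higher and 27 lower, against the 19.9% of all genes. In the same window 56 (19.6%) differed from all other controls, 38 higher and 18 lower, and 31 (10.9%) from CreCtrl, 24 higher and 7 lower. The share called against Ctrl was 21.5% within 5 Mb and 17.5% within 20 Mb. Alpl, alkaline phosphatase, 2.47 Mb from Clic4, had 151, 103 and 166 CPM in WT, 28.7 and 27.0 CPM in Ctrl and 30.9 and 34.8 CPM in CreCtrl, giving a log2 fold change of 2.21 ± 0.19 (SE, adjusted p = 0.000496). Id3, an inhibitor of basic helix-loop-helix factors, 0.871 Mb away, had 691, 469.9 and 584 CPM in WT, 239 and 130.1 CPM in Ctrl and 179 and 178 CPM in CreCtrl. Ephb2, an ephrin receptor, 1.37 Mb away, had 64.0, 47.9 and 63.2 CPM in WT, 19.9 and 19.5 CPM in Ctrl and 11.6 and 18.3 CPM in CreCtrl.

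Genes known to differ between C57BL/6 substrains were listed because the alleles came from different lines. Of 7 listed, 5 were tested and 2 were lower in WT. Nnt encodes the mitochondrial nicotinamide nucleotide transhydrogenase and carries a deletion of exons in C57BL/6J. It had 36.9, 28.4 and 26.1 CPM in WT, 119 and 139 CPM in Ctrl and 57.5 and 57.5 CPM in CreCtrl, giving a log2 fold change of -1.50 ± 0.18 (SE, adjusted p = 0.00125). The 3 genotypes did not overlap, with Ctrl highest and CreCtrl in between, and the log2 fold change was -2.08 against Ctrl and -0.92 against CreCtrl. Of its 50-base stretches 96.3% lie in another annotated gene as well. The deposited table counts whole genes, so the exons deleted in C57BL/6J were not analysed here. Crb1, which carries the rd8 mutation in C57BL/6N and not in C57BL/6J, had 1.47, 5.31 and 5.26 CPM in WT, 10.9 and 15.2 CPM in Ctrl and 5.82 and 23.3 CPM in CreCtrl and did not pass. The study describes its Best1-Cre and floxed Clic4 mice as free of rd8. Wdfy1 had a log2 fold change of -0.75 and lost its call without WT replicate 2 or 3, Ctrl replicate 1 or CreCtrl replicate 2.

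Cytosolic ribosomal protein genes separated the Ctrl libraries from all others. Of 73 tested, 68 were higher in WT than in Ctrl, 23 higher in WT than in CreCtrl and 53 higher in CreCtrl than in Ctrl, with 0 lower in each. Medians were 3.07, 0.68 and 2.44 on the log2 scale. Taken as 1 group of 4 other controls, 14 were called. Rpl38, a protein of the large subunit, had 92.8, 95.8 and 93.4 CPM in WT, 0.0715 and 0.0407 CPM in Ctrl and 78.6 and 69.0 CPM in CreCtrl. Rps12, of the small subunit, had 294, 298 and 269 CPM in WT, 1.79 and 1.14 CPM in Ctrl and 155 and 143 CPM in CreCtrl. Both were almost absent from Ctrl and present in CreCtrl at levels nearer to WT. Actg1, cytoplasmic gamma actin, had 256.2, 268 and 275 CPM in WT, 6.29 and 5.62 CPM in Ctrl and 171 and 143 CPM in CreCtrl, and Ppia, cyclophilin A, had 216, 269 and 214 CPM in WT, 16.4 and 10.7 CPM in Ctrl and 348 and 252 CPM in CreCtrl. These genes have in common that copies of their sequence lie elsewhere in the genome. The stretches of 50 coding bases below, read from GENCODE M21 transcripts (GRCm38), each also occur in the longest transcript of other annotated genes, and are shown to make that visible.
Gapdh, chr6:125162898-125162947, minus strand, also in 83 other genes: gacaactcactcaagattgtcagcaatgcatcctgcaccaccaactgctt
Rps12, chr10:23785224-23785273, minus strand, also in 21 other genes: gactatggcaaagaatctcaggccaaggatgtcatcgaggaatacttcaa
Rpl38, chr11:114671760-114671809, plus strand, also in 4 other genes: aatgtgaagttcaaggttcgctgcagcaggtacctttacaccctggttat

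Across all genes the difference from Ctrl went with the share of a gene's 50-base stretches that occur in another gene. Genes with no shared stretch (11093) had a median log2 fold change of -0.06 in WT against Ctrl and 0.01 in WT against CreCtrl. Genes with over 50% shared (442) had medians of 1.16 against Ctrl and 0.15 against CreCtrl. Of those 442, 109 were called higher and 8 lower in WT than in Ctrl, and 17 higher and 11 lower in WT than in CreCtrl. Among the 122 genes higher in CreCtrl than in Ctrl, 5 had no shared stretch, 31 had over 5 to 25%, 47 over 25 to 50% and 37 over 50%, while 12.3% of the genes tested had over 5%. Gapdh itself had a log2 fold change of 5.26 against Ctrl and -0.92 against CreCtrl, so its direction depends on the control genotype. The part of read assignment in these values was not tested. The p-values of the same fit were also readjusted by Benjamini-Hochberg over the 11093 genes with no shared stretch alone. Of these, 2335 were then called between WT and all other controls, 1189 higher and 1146 lower, 2158 against Ctrl and 1437 against CreCtrl.

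**Figure D4:**
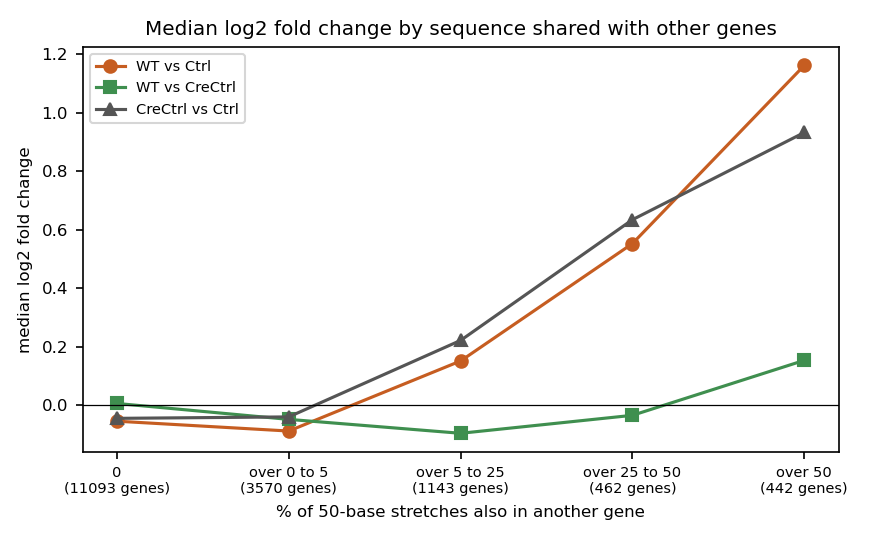
Median log2 fold change (y axis) of genes binned by the percent of their 50-base stretches that also occur in another gene (x axis, with the number of genes), for 3 comparisons of control genotypes. The medians of WT vs Ctrl and CreCtrl vs Ctrl climb to 1.16 and 0.93 in the last bin, while WT vs CreCtrl stays between -0.10 and 0.15.

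Part of the genes of oxidative phosphorylation were lower in WT. Of 74 nuclear-encoded subunits tested 20 were lower and 3 higher, and the others were not called, with a median log2 fold change of -0.42 (15 lower against Ctrl and 13 against CreCtrl). Complex I had 8 of 36 lower, complex II 2 of 4, complex III 2 of 9, complex IV 3 of 10 and complex V 5 of 15. Over all genes tested 9.98% were lower against all other controls, 10.8% against Ctrl and 5.43% against CreCtrl. Against Ctrl the median was -0.17 in complex I (6 lower), -0.29 in complex IV (1 lower) and 0.04 in complex V (4 lower, 3 higher). Against CreCtrl these medians were -0.58 (7 lower), -0.76 (2 lower) and -0.72 (2 lower). The summed level was 6089.6, 6869 and 7049.9 CPM in WT, 9334 and 8521 CPM in Ctrl and 11891 and 8978 CPM in CreCtrl, with all WT libraries below all others. Ndufc2, a subunit of complex I, had 47.6, 56.2 and 50.3 CPM in WT, 166 and 114 CPM in Ctrl and 183 and 138 CPM in CreCtrl, giving a log2 fold change of -1.54 ± 0.20 (SE, adjusted p = 0.00148). Uqcrc2, a core subunit of complex III, had 82.5, 64.1 and 77.3 CPM in WT, 163 and 172 CPM in Ctrl and 155 and 107 CPM in CreCtrl, giving a log2 fold change of -0.99 ± 0.18 (SE, adjusted p = 0.00623). The 3 higher members, Cox7c, Atp5g2 and Atp5l, share stretches with copies and were low in Ctrl, as Cox7c with 46.6, 40.0 and 58.8 CPM in WT, 8.08 and 2.89 CPM in Ctrl and 97.5 and 86.8 CPM in CreCtrl. The total of 23 called was 14 without WT replicate 1, 9 without WT replicate 2, 14 without WT replicate 3 and 10 without CreCtrl replicate 1, and under library size alone 11 were lower.

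Most sterol synthesis genes tested were lower in WT than in Ctrl. Of 20 tested, 12 were lower against Ctrl and 0 against CreCtrl, and 8 against both together, with medians of -1.57, -0.50 and -1.03. Msmo1, a demethylating oxidase of the pathway, had 34.0, 38.8 and 53.7 CPM in WT, 104.9 and 210.2 CPM in Ctrl and 99.7 and 78.5 CPM in CreCtrl, giving a log2 fold change of -1.49 ± 0.28 (SE, adjusted p = 0.00689). Hmgcs1, the synthase at the start of the pathway, had 25.2, 30.4 and 45.0 CPM in WT, 98.6 and 261 CPM in Ctrl and 86.2 and 53.7 CPM in CreCtrl, and its call was lost without WT replicate 1 or 2. Ctrl replicate 2 was the highest library for both, and its summed level of 2401 CPM stood above the 675 to 907 CPM of the other 3 non-WT controls. The 8 called were 3 without WT replicate 1 or 2 and 2 without WT replicate 3 or CreCtrl replicate 1.

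The genes with the largest differences included the repeated genes above. Of the 12 protein-coding genes with the highest log2 fold change whose WT libraries all lay above the others, 9 were ribosomal protein genes, Fau (a ubiquitin-like fusion to a ribosomal protein) among them. The other 3 were Ccn5, Nell2 and Sfrp2. Ccn5, a secreted matricellular protein of smooth muscle and fibroblasts, had 91.4, 89.5 and 104 CPM in WT, 0.858 and 0.692 CPM in Ctrl and 4.03 and 6.71 CPM in CreCtrl, giving a log2 fold change of 5.55 ± 0.24 (SE, adjusted p = 1.91e-05). Nell2, a secreted glycoprotein, had 31.9, 36.5 and 38.4 CPM in WT, 0.572 and 0.936 CPM in Ctrl and 1.78 and 4.40 CPM in CreCtrl, giving a log2 fold change of 4.53 ± 0.36 (SE, adjusted p = 0.000346). Sfrp2, a secreted binder of Wnt proteins, had 46.2, 70.8 and 61.9 CPM in WT, 4.43 and 1.79 CPM in Ctrl and 3.89 and 4.75 CPM in CreCtrl, giving a log2 fold change of 4.04 ± 0.32 (SE, adjusted p = 0.000346). Among genes with no shared stretch, a choice made after the values were seen, the next included Tmem255b, Clec3b, Galr2, Slc6a7, C7, Adgrd1 and Chad. Galr2, Slc6a7 and Adgrd1 were called against Ctrl but not against CreCtrl (adjusted p = 0.0535, 0.0631 and 0.104 in edgeR's test). Chad, a matrix protein of cartilage, had 202, 160.3 and 245 CPM in WT, 14.2 and 4.56 CPM in Ctrl and 19.9 and 38.0 CPM in CreCtrl, giving a log2 fold change of 3.63 ± 0.39 (SE, adjusted p = 0.000931). Clec3b, the plasminogen-binding tetranectin, had 49.9, 90.2 and 42.6 CPM in WT, 2.72 and 1.10 CPM in Ctrl and 10.6 and 11.1 CPM in CreCtrl. Tnmd, tenomodulin of dense connective tissue, had 57.5, 52.3 and 52.2 CPM in WT, 6.01 and 0.611 CPM in Ctrl and 3.52 and 10.5 CPM in CreCtrl. Igfbp5, a binder of insulin-like growth factors, was named outside these rankings, after its values were seen. It had 16706, 14092 and 15815 CPM in WT, 3888 and 2488 CPM in Ctrl and 3218 and 6251 CPM in CreCtrl. The log2 fold change was 2.00 ± 0.29 (SE, adjusted p = 0.0024).

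At the other end stood genes that were many-fold lower in WT. Itgb8, an integrin chain that activates TGF-beta, had 166, 175 and 214 CPM in WT, 2279 and 3477 CPM in Ctrl and 1972 and 1187 CPM in CreCtrl, giving a log2 fold change of -3.53 ± 0.28 (SE, adjusted p = 0.000346). Cltrn, a transmembrane relative of angiotensin-converting enzyme 2, had 28.6, 57.9 and 83.1 CPM in WT, 622 and 653 CPM in Ctrl and 729 and 431 CPM in CreCtrl, giving a log2 fold change of -3.43 ± 0.39 (SE, adjusted p = 0.00107). Gpm6a, a membrane glycoprotein, had 28.7, 38.9 and 36.9 CPM in WT, 379 and 546 CPM in Ctrl and 359 and 207 CPM in CreCtrl, giving a log2 fold change of -3.38 ± 0.27 (SE, adjusted p = 0.000346). Nyap2, an adaptor of phosphoinositide 3-kinase, had 2.02, 2.24 and 3.20 CPM in WT, 59.4 and 83.4 CPM in Ctrl and 45.1 and 18.6 CPM in CreCtrl, giving a log2 fold change of -4.25 ± 0.39 (SE, adjusted p = 0.000616). Serpine3, a serpin, had 26.5, 28.4 and 9.46 CPM in WT, 279 and 867 CPM in Ctrl and 253 and 1057 CPM in CreCtrl, giving a log2 fold change of -4.84 ± 0.71 (SE, adjusted p = 0.00259), with replicates of Ctrl and of CreCtrl far apart. Ankfn1, Sntb1, Parm1, Fmn2 and Gabra4 had log2 fold changes of -4.04, -3.54, -3.16, -3.25 and -2.86. Muc15 and Tmprss11a, the remaining members of the 12, were highest in Ctrl replicate 2, at 30.1 and 198 CPM, and neither was called against CreCtrl. Muc15 lost its call without Ctrl replicate 2 (adjusted p = 0.0711). Ptgds, a prostaglandin D synthase, was named outside the 12, after its values were seen, and had a smaller difference. It had 9258, 10213 and 13089 CPM in WT, 29717 and 25556 CPM in Ctrl and 38303 and 29243 CPM in CreCtrl. The log2 fold change was -1.49 ± 0.25 (SE, adjusted p = 0.00453), and the call was lost without WT replicate 2 (adjusted p = 0.0622).

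**Figure D5:**
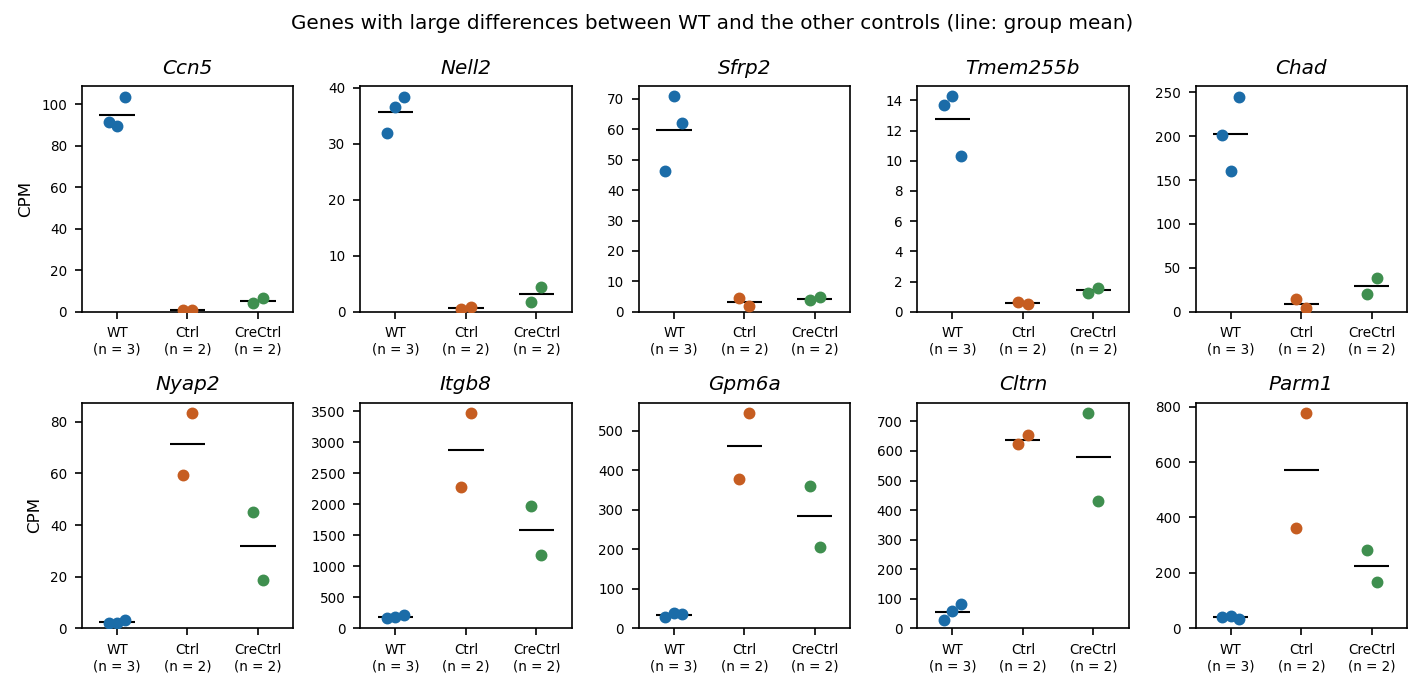
CPM of 5 genes higher (top row) and 5 genes lower (bottom row) in WT (y axis, a scale of its own for each gene) in each control library by genotype (x axis), with 1 point per library and a line at the group mean. The genes were chosen among those whose 3 WT libraries lie outside the range of the 4 others, as in Ccn5 at 89.5 to 104 CPM in WT and at most 6.71 CPM elsewhere.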

How the data were processed

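RPE RNA of 7 mice (3 WT, 2 Ctrl, 2 CreCtrl) was analysed from a deposited table of raw counts per gene. The authors prepared mRNA with a stranded TruSeq kit and aligned paired reads to GRCm38 with STAR. The submitters' processing notes name bcl2fastq 2.19, STAR 2.5.2, Cufflinks 2.1.1 and HTSeq 0.11.2. The strand setting and annotation release of the counting are not given in the sources used here. Of 42687 gene IDs 42329 were found in GENCODE M21, from which symbols and positions were taken. There were 0 columns of per-sample values with no sample, and mitochondrially encoded genes were not analysed here. Library totals ran from 9828293 to 28581114 counts, and a count floor of 3 corresponds to 0.105 to 0.305 CPM.

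Genes were filtered with filterByExpr by genotype, normalised by TMM and tested in 1 edgeR 4.0.16 quasi-likelihood fit (R 4.3.3, limma 3.58.1) with 3 genotype groups, with Benjamini-Hochberg adjustment over all genes tested. WT was set against the mean of Ctrl and CreCtrl and against each alone. A gene was called at an adjusted p under 0.05 and a fold change above 1.5. CPM are TMM-scaled unless said otherwise. Adjusted p-values in the text come from this fit, except those given for a fit that left out 1 library. Single values per library were compared by an exact two-sided permutation test. Each library is 1 mouse, so the p-values measure the spread between these mice. The fit was also run on simulated counts in which a chosen set of genes differed in WT alone. Those counts held no difference between Ctrl and CreCtrl and no library with corneal transcripts. They therefore do not show how the fit handles such features.

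The members, gene lists and tests were chosen with earlier results of these data known. Genes were named by a rule: Clic4 and Best1, the 12 protein-coding genes with the largest log2 fold change in each direction among those called with a mean of at least 5 CPM whose WT libraries lay outside the range of the others (leaving out Gm and Rik symbols), up to 4 called members of each list by smallest p, or otherwise the 2 most abundant, the CLIC and substrain genes, and up to 6 called genes near Clic4. B2m, C1qc, C3, C7, Col4a2 to Col4a5, Csf1r, Dhrs3, Fosb, Gm42418, Igfbp5, Klf6, Krt12, Mlph, Ptgds, Rlbp1, Slc16a8, Tyr, Tyro3, Tyrp1 and Zfp36 were named in addition, after their values were seen, as were Gapdh, Ppia and Actg1, the corneal list and the use of shared stretches.

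Shared stretches are the percent of 50-base stretches of a gene's longest GENCODE M21 transcript that also occur in another gene's. Alternatives were RLE factors, library size alone, DESeq2 1.42.0, filters of at least 1 count and of at least 10 counts in every library, the 4 other controls as 1 group, fits of only the genotypes compared, the replicate number as a block, the fibroblast score as a covariate, and leaving out each library in turn.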

Additional observations from a re-analysis of the deposited data

Results flagged for a closer look

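The difference between WT and Ctrl differed from that between WT and CreCtrl for 141 genes, which is the same as a difference between CreCtrl and Ctrl in the fit over all genes. Of these, 53 were cytosolic ribosomal protein genes, all higher in CreCtrl. The log2 fold changes of CreCtrl over Ctrl were 10.26 for Rpl38, 7.03 for Rpl23a, 7.27 for Fau, 6.55 for Rps23, 6.70 for Rps12, 7.51 for Rps29, 6.18 for Rpsa, 6.44 for Rps16, 6.29 for Rps27, 6.28 for Rps7 and 5.13 for Rpl11. The Ctrl libraries held 1 count of Rpl38 each, so its fitted value depends on the prior count and is no bound. Among other genes the values were 4.09 for Cox7c, 3.96 for Atp5g2, 4.70 for Atp5l, 6.18 for Gapdh, 4.48 for Ppia and 4.72 for Actg1.

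Ccn5, which has no shared stretch, was 2.79 higher in CreCtrl than in Ctrl on the log2 scale, so that the 3 genotypes stood in the order WT, CreCtrl, Ctrl. Krt12, the keratin of the corneal epithelium, was lower in CreCtrl than in Ctrl, with a log2 fold change of -12.59, and its 2 Ctrl values of 275 and 4346 CPM differed widely. No genotype had 4 or more libraries, the smallest group for which Dixon's gap criterion was applied, and single libraries were not tested against their group in another way.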

How the results depend on the processing

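Counts of genes called against all other controls, against Ctrl and against CreCtrl were 1985, 1740 and 607 with the replicate block. Deviations of same-numbered libraries from their group means correlated with r of 0.092, 0.04, 0.214, -0.08, -0.267 and -0.267. In a group of 2 libraries the deviations mirror each other, so these values cannot decide whether the numbers pair the mice. With the fibroblast score as a covariate the counts were 0, 1 and 0 in edgeR's test, with 373, 318 and 551 genes at an unadjusted p under 0.05, and DESeq2 was not run with it or with a library left out. Leaving out 1 library gave 1897 to 3746 calls against all other controls, 1484 to 3767 against Ctrl and 0 to 2628 against CreCtrl. Against Ctrl the count was 1484 without Ctrl replicate 2 and 2136 without WT replicate 3. Against CreCtrl it was 1107, 675 and 918 without WT replicates 1, 2 and 3, 0 without CreCtrl replicate 1 and 953 without CreCtrl replicate 2. Testing genes with at least 1 count gave 3305 against CreCtrl. Readjusting the p-values of the main fit over only the genes with no shared stretch gave 2158 against Ctrl, a count lowered by the smaller number of genes tested. The cause of the other shifts was not tested. DESeq2 called 4147, 4266 and 2979. Library size alone gave 1919 higher and 1199 lower against Ctrl and 1210 and 688 against CreCtrl.

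Of 142 genes named, 132 were called and 80 were called under every alternative other than the fibroblast score. With that score the log2 fold change against the other controls changed sign for 21 genes: Axl (-0.38), Col3a1 (-0.0922), Rgs5 (-0.0560), C1qb (-1.19), C1qa (-1.50), Mrc1 (-1.08), Kit (0.46), Prx (-1.86), Ddx3y (0.0317), Hsp90aa1 (0.53), Hlf (0.22), Sdha (0.25), Uqcrc2 (0.17), Cox8a (0.30), Cox5a (0.32), Atp5b (0.0092), Hmgcs1 (0.52), Fdft1 (0.89), Galr2 (-1.01), Tnmd (-1.21) and Igfbp5 (-0.0857). The WT libraries were the shallowest, and 3 libraries against 4 limit the exact test to p = 0.0571.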

Other observations

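Markers of cells from outside the RPE and its stroma gave a mixed picture. For the small lists below, the shares over all genes tested against all other controls were 10.8% higher and 9.98% lower in WT. Counts near those shares say little about a list. Of 12 rod markers 1 was called lower and 0 higher, with a fold change below 1 in all 12. With the looser filter of at least 1 count all 12 were called lower, and the call was lost without WT replicate 2. Their summed level was 68.6, 469.3 and 1757 CPM in WT, 2405 and 638 CPM in Ctrl and 1384 and 5668 CPM in CreCtrl, and the groups overlapped. None of the 5 cone markers was called in edgeR's test or by DESeq2, with 0 at an unadjusted p under 0.05, and their summed level was 25.2, 28.3 and 54.5 CPM in WT, 47.2 and 19.9 CPM in Ctrl and 40.9 and 101 CPM in CreCtrl. Schwann cell markers gave 1 higher (0 without WT replicate 3) and 2 lower of 6, with 499, 294 and 346 CPM in WT, 620.0 and 701 CPM in Ctrl and 564 and 748 CPM in CreCtrl, the WT libraries all below the others. Mast cell markers gave 1 higher and 1 lower of 6, with 41.4, 75.6 and 14.0 CPM in WT, 26.0 and 72.2 CPM in Ctrl and 28.8 and 19.9 CPM in CreCtrl. Both calls were lost without WT replicate 1, WT replicate 2, Ctrl replicate 2, CreCtrl replicate 1 or CreCtrl replicate 2. Erythrocyte markers, 0 of 5 called by edgeR and DESeq2 over all 7 libraries (0 at an unadjusted p under 0.05) and 3 called by edgeR without CreCtrl replicate 2, had 654, 648 and 375 CPM in WT, 287 and 167 CPM in Ctrl and 119.6 and 826 CPM in CreCtrl. Skeletal muscle markers, 2 of 4 tested higher and 1 higher without any single Ctrl or CreCtrl library, had 10.8, 24.1 and 11.3 CPM in WT, 5.22 and 2.73 CPM in Ctrl and 4.27 and 5.03 CPM in CreCtrl.

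The corneal list of 8 genes, drawn up after their values were seen, had 403, 1063 and 249 CPM in WT, 2217 and 16634 CPM in Ctrl and 303 and 229 CPM in CreCtrl, with Ctrl replicate 2 far above all others. Of the 8, 1 was higher (0 without WT replicate 1 or 2, Ctrl replicate 1 or CreCtrl replicate 1) and 1 lower (2 without Ctrl replicate 1) in WT against all other controls, and 4 were lower against Ctrl. Sex genes had 2 of 5 lower in WT. Xist, the RNA of the inactive X chromosome, stood at 0 to 1.37 CPM in all 7 libraries, which come from male mice.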
